A study of Mus musculus with 12 samples.

Results

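The genes described here encode voltage-gated calcium, sodium and pacemaker channels and the potassium channels, with their accessory subunits. They were chosen by gene symbol: symbols that start with Kcn or Cacn, or with Scn or Hcn and a digit, without Kcnq1ot1. Earlier results of these data were known when this choice was made. This gave 132 genes, 0.534% of the 24704 genes with a symbol on the arrays. Of these, 60 were bright enough to be tested and 72 were set aside as dim. Expression was measured on 12 Affymetrix arrays of ventricular myocytes, the contractile cells of the lower heart chambers, from 6 adult mice. Of the mice, 3 were deficient for CaMKII delta and CaMKII gamma, forms of a kinase switched on by calcium and calmodulin (double knockout, DKO), and 3 were the corresponding wild type (WT). The cells of each mouse gave 1 untreated array and 1 array with 100 nM isoprenaline (Iso), both at 24 h, so the 4 groups hold 3 arrays each. Iso activates beta-adrenergic receptors. The sources used here do not say how the alleles were made, whether a Cre driver was used, or which strain carried them. The mice of a group are separate animals, and the small number of arrays limits the precision of every value.

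Voltage-gated channels open and close with the membrane potential and shape the cardiac action potential: sodium channels drive the upstroke, L-type calcium channels carry the current of the plateau, and potassium channels bring the membrane back to rest. A channel is a complex in which a pore-forming subunit works with accessory subunits that set its amount at the membrane and its gating. In mouse ventricle the early repolarising transient outward current is large, and inward rectifiers hold the resting potential. Beta-adrenergic stimulation and CaMKII both act on many of these channels directly, through phosphorylation, a change that an array of transcripts does not measure.

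The check of the targeted genes gave different answers for each. Camk2g gave log2 signals of 4.78 to 5.80 on the WT arrays and 3.57 to 4.20 on the DKO arrays, and its mean over both treatments fell by 1.42 on the log2 scale in DKO (limma adjusted p = 0.0132). Camk2d gave 7.94 to 8.42 on the WT arrays and 7.36 to 7.98 on the DKO arrays, so that the genotypes overlapped, and did not pass (difference -0.32, limma adjusted p = 0.485). The sources used here do not say whether the probes of either gene lie in its deleted part, and probes outside it would check nothing. Untreated DKO array 3 stood apart: its median correlation with the other arrays was 0.956, against 0.984 to 0.988 for the rest. Over the 60 channel genes the root mean square of its deviations from the group was 0.270 (log2), against 0.115 to 0.201 on the other arrays. Among other extremes, this array gave the highest of the 12 values of Cacng4, Scn4b, Kcnh2, Kcnk3, Kcnn1 and Kcna5. It also gave the lowest of Cacna2d1, Kcnd3 and Kcnj2. For channel genes, most results that rest on it are given with and without it. Those of channel partners, transcription factors and cell type markers are given with it only. Without it, the Iso array alone stands for that mouse in DKO over both treatments, so treatment enters that difference. All 12 ventricular myocyte markers were bright. Their mean log2 signal was 12.02 to 12.09 in untreated WT and 12.18 to 12.25 in WT with Iso. In DKO it was 12.04 to 12.10 untreated and 12.10 to 12.25 with Iso. The Iso difference lay above 0 for 12 of 12 markers in WT and 9 of 12 in DKO, and none passed. Of all genes tested, 47.8% and 50.9% lay above 0. Of 12 neuronal and Schwann cell markers in the table, 2 were bright. The mean log2 signal of 14 bright macrophage and leukocyte markers was 4.58 to 4.74 in DKO with Iso and 4.96 to 5.19 elsewhere. Between DKO and WT with Iso, 13 of the 14 had differences below 0 and 2 passed. Of all genes, 50.9% lay above 0 and 0.306% passed in that comparison. Over all arrays the mean of 11 fibroblast markers was 4.96 to 5.33 and that of 12 smooth muscle and pericyte markers 4.96 to 5.22. Their part in the channel values was not tested. In such bulk samples, fewer cells of a type and less RNA per cell cannot be told apart.

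Promoter sequence is shown for the pore, alpha2delta and beta subunits of the ventricular L-type calcium channel and for Kcnd2. Kcnd2 encodes a pore subunit of the transient outward current. These genes were among the channel genes with the smallest p for Iso over both genotypes in the same data. None of them passed in any Iso comparison. Kcnd3, which had the lowest adjusted p of a channel gene for Iso in DKO (limma adjusted p = 0.126), is not shown. Each sequence is the 250 bases before the most upstream of the transcription starts that the RefSeq promoter table of GRCm38.p6 lists for the gene, read 5′ to 3′ on its strand. The RefSeq gene bounds of Cacna1c, Cacna2d1 and Cacnb2 reach farther upstream than these starts, so those windows lie inside the bounds. Capitals mark the core of the cAMP response element (TGACG, or CGTCA on the other strand), the site read by CREB-family factors downstream of beta-adrenergic signalling, and the GC box (GGGCGG, or CCGCCC on the other strand). The regions are chr6:119196410-119196659 (minus strand) for Cacna1c, chr5:15934441-15934690 (plus strand) for Cacna2d1, chr2:14604056-14604305 (plus strand) for Cacnb2 and chr6:21215096-21215345 (plus strand) for Kcnd2.
Cacna1c: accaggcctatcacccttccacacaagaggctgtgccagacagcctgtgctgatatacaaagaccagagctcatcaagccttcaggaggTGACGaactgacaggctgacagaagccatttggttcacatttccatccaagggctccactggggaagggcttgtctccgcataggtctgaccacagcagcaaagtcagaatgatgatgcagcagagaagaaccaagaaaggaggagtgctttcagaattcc
Cacna2d1: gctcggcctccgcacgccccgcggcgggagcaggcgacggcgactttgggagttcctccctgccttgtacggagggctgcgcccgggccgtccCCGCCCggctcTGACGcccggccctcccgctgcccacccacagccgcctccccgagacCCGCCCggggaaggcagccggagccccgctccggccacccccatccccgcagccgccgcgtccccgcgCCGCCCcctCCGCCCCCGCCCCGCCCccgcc
Cacnb2: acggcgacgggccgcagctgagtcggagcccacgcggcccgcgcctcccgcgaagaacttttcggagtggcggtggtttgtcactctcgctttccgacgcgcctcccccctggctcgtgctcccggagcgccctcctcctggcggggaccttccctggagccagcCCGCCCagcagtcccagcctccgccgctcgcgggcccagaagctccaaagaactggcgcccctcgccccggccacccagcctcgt
Kcnd2: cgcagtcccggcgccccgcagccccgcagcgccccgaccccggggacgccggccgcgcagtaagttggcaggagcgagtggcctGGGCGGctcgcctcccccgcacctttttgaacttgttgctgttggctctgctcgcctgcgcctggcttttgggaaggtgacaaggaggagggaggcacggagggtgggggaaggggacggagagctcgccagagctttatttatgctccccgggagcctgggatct

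The windows of Cacna1c and Cacna2d1 each held 1 core match, which begins 161 and 146 bases before the start, respectively, while those of Cacnb2 and Kcnd2 held none. GC boxes numbered 6 before Cacna2d1 and 1 each before Cacnb2 and Kcnd2. RefSeq promoters were matched for 101 of the 132 channel genes and for 43 of the 60 bright ones (71.7%), too few for a comparison of promoter composition over the bright genes, which is therefore void. Among the 43, the complete palindrome TGACGTCA was in none and the 5-base core in 8 (18.6%). They were in 1.60% and 17.8% of all promoters of the table and in 2.44% and 25.6% of the promoters of all bright genes, and nothing is read from these shares. A match is a match of letters only, and no match says only that these letters are not in this window.

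Which channel genes gave a signal was set by brightness: a gene counted as bright if it lay above the median of its array, near 3.31 on the log2 scale, on at least 3 of the 12 arrays. By this rule 45.5% of the channel genes were bright, against 55.6% of all genes. Signal on such arrays also depends on the probes, so the level of one gene is not set against that of another. The calcium channels gave 4 bright pore genes of 10 (Cacna1c, Cacna1s, Cacna1b and Cacna1g), 2 of 4 alpha2delta genes, 2 of 3 beta genes and 5 of 8 gamma genes. None of the 8 sodium channel pore genes analysed here and 1 of 3 sodium channel beta genes, Scn4b, was bright. Of the voltage-gated potassium channel pore genes 17 of 36 were bright, of their accessory genes 4 of 13, of the inward rectifiers 9 of 15, of the 2-pore background channels 7 of 14, of the calcium- or sodium-activated channels 6 of 12, of the pacemaker channels 1 of 3 (Hcn2) and of the antisense RNA genes 2 of 3.

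**Figure D1:**
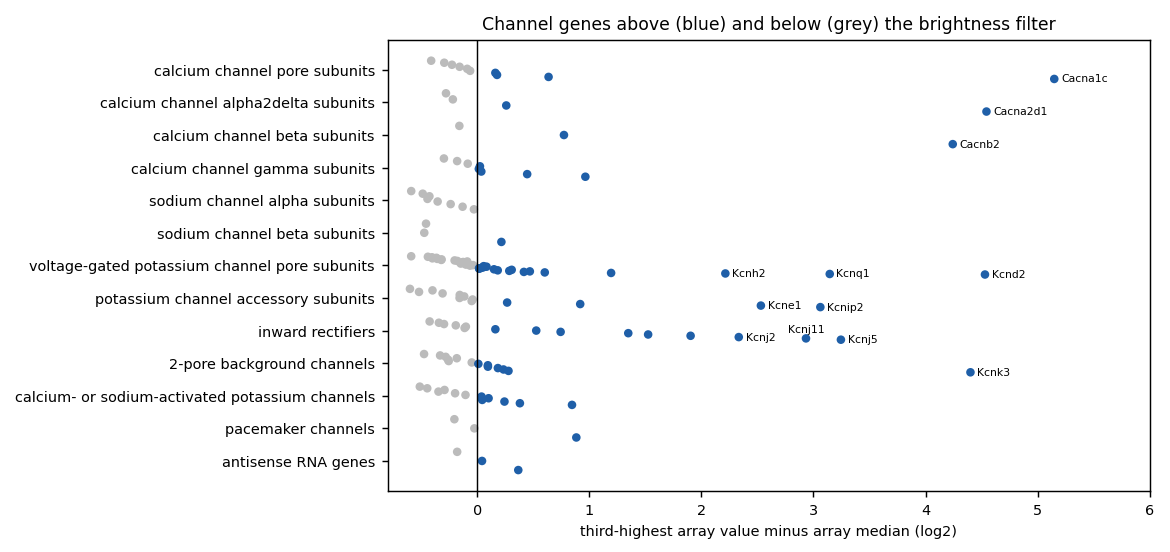
Each point is 1 of the 132 channel genes, in rows by role; the horizontal axis is its third-highest array value minus the array median (log2), so that points right of 0 (blue) passed the brightness filter and points left of it (grey) were dim. The rows for L-type calcium channel subunits, Kcnd2 and Kcnk3 reach farthest right, and the sodium channel pore row holds only grey points; horizontal position does not rank genes by amount of RNA.

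The mean log2 signal over the 12 arrays was highest at the probe sets of Cacna1c (8.21), the pore of the L-type channel, Cacna2d1 (7.62), Kcnd2 (7.60), Kcnk3 (7.51), which encodes the background channel TASK-1, and Cacnb2 (7.34). Then came Kcnq1 (6.30), Kcnj5 (6.15), Kcnip2 (6.08), Kcnj11 (5.99), Kcne1 (5.55), Kcnj2 (5.45), Kcnh2 (5.30), Kcnj14 (4.96), Kcnj3 (4.69) and Kcnj8 (4.49). All 15 are known cardiac channel genes, and 30 of the 60 bright genes lay above the median on all 12 arrays. At the edge of the filter, the third-highest value lay above the median by 0.016 for Kcng1, 0.015 for Cacng5 and 0.010 for Kcnk6, and below it by 0.025 for Hcn4, 0.029 for Scn11a and 0.037 for Kcns1. The 7 lists of core cardiac channels hold 51 genes, of which 46 were in the table, 29 were bright and 5 were not analysed here. The 17 dim ones were Scn1a, Scn2b, Scn3a, Scn3b, Scn8a, Cacna1d, Cacna1h, Kcna2, Kcna4, Kcnab1, Kcnab2, Kcne2, Kcne3, Kcnk2, Kcnma1, Kcnn3 and Hcn4. The 72 dim genes had array values of 2.47 to 3.54, and no change in them is reported. Some bright genes, such as Cacng7 at 2.81 to 3.53, lay within the same range, and their differences need the same caution.

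None of the 60 channel genes passed at a limma adjusted p under 0.05 in any of the 7 comparisons, neither up nor down. All tested genes together passed seldom as well. Iso called 0.0218% of them in WT, 0.051% in DKO and 0.124% over both genotypes, and 0.0146% were called for the difference between the Iso effects. The genotype called 0.204% without Iso, 0.306% with Iso and 0.291% over both treatments. At these rates 60 genes would seldom hold a call, so the count of 0 does not set the channels apart from other genes. The lowest adjusted p of a channel gene was 0.460, 0.126, 0.122, 0.417, 0.202, 0.295 and 0.251 in the same order.

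**Figure D2:**
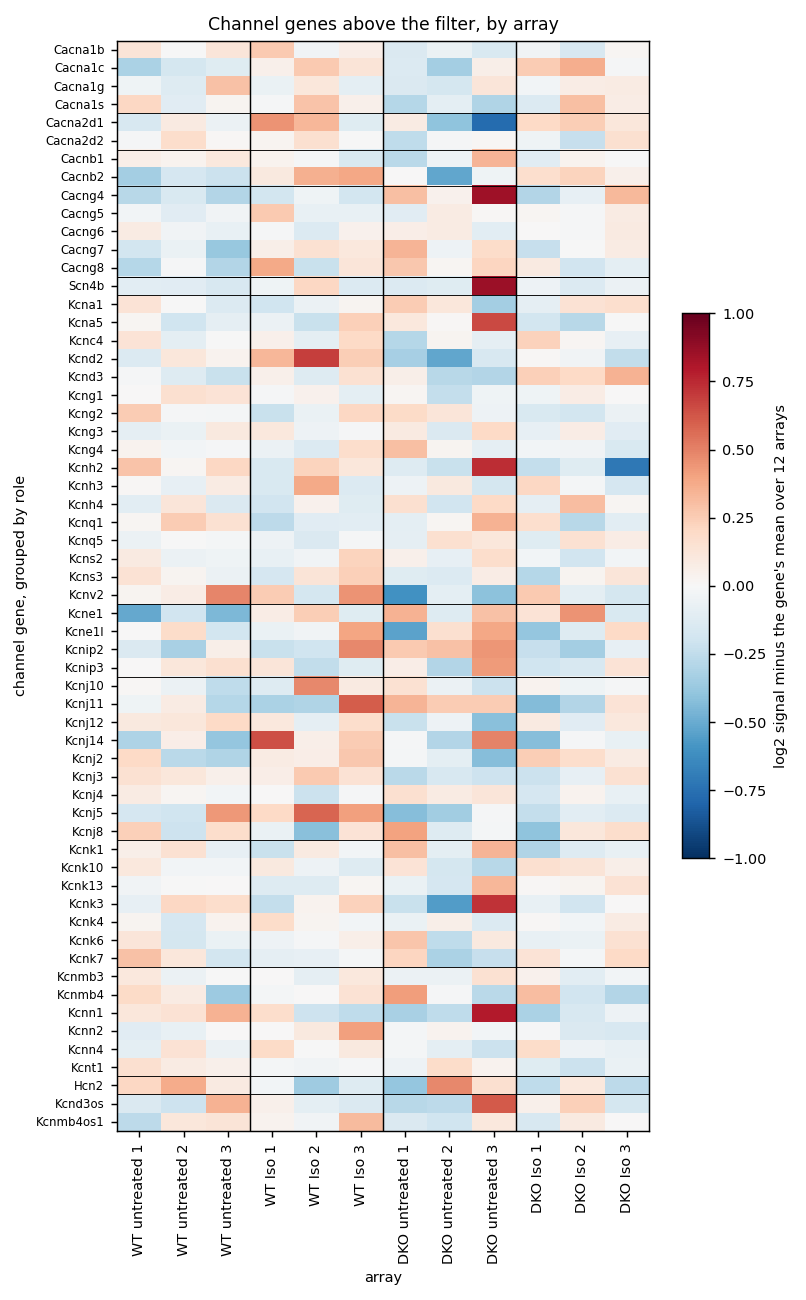
Each row is 1 of the 60 bright channel genes, in blocks by role, and each column 1 array; colour is the log2 signal minus the mean of that gene over the 12 arrays, from -1 (blue) to 1 (red). Few blocks of 3 arrays share a colour, and the column of untreated DKO array 3 holds the deepest colours, at Cacng4, Scn4b, Kcnh2, Kcnk3, Kcnn1 and Cacna2d1.

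The intervals show how large a change in array signal could have gone unseen. For genes near the array median they do not bound the change in RNA. Only 30 of the 60 genes lay above that median on all arrays. For Iso over both genotypes and for DKO over both treatments, the 95% interval of the difference lay inside -1 to 1 on the log2 scale for all 60 genes, and inside -0.5 to 0.5 for 50 and 53 of them. The same wider limits held for 59 genes for Iso in WT (not Kcnj14), 60 for Iso in DKO, 58 for DKO without Iso (not Cacng4 and Kcnv2) and 60 for DKO with Iso. The difference between the Iso effects was measured less well, with 50 of 60 intervals inside -1 to 1. The median difference over the 60 genes was between -0.05 and 0.03 in all 7 comparisons, and the medians over all 13737 genes tested lay between -0.01 and 0.01.

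At an unadjusted p under 0.05, the channel genes were near the rate of all genes. For Iso in WT 6 of 60 channel genes (10%) had such a p, against 6.7% of all genes, and all 6 were higher with Iso (3.46% of all genes were higher at this p). For Iso in DKO the count was 8 (13.3% against 18.4%), 5 of them higher and 3 lower, and for the difference between Iso effects 4 (6.67% against 10.1%), all lower in DKO (4.62% of all genes). DKO without Iso gave 9 (15% against 13.8%), DKO with Iso 4 (6.67% against 7.91%), all lower (4.18% of all genes), Iso over both genotypes 9 (15% against 14.4%) and DKO over both treatments 7 (11.7% against 9.68%). Without untreated DKO array 3 these counts were 9, 5, 2, 10, 5, 7 and 6, and again no channel gene passed after adjustment. The shares of all genes at this p without that array are not given here, so nothing is read from these counts.

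**Figure D3:**
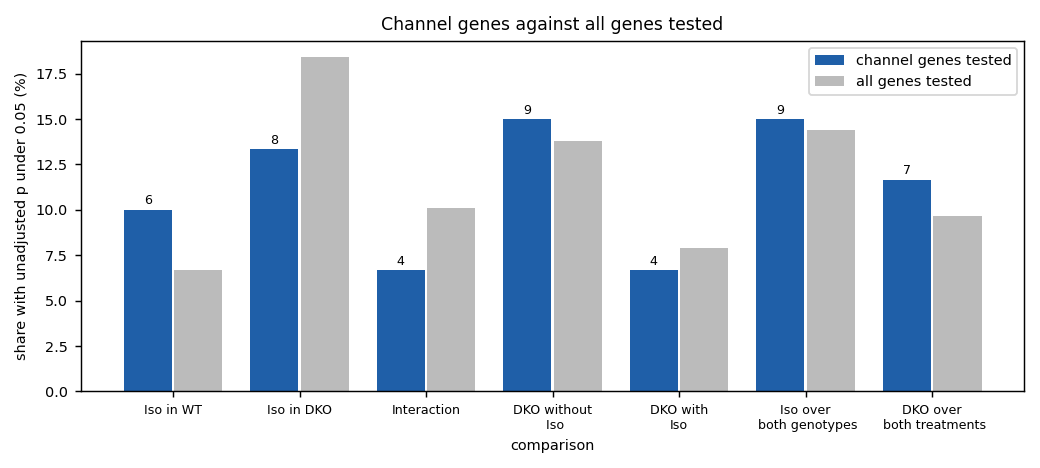
Bars give the share (%) of the 60 channel genes (blue, with their number above the bar) and of the 13737 genes tested (grey) that had an unadjusted p under 0.05 in each of the 7 comparisons. The blue bars lie between 6.67% and 15%, on either side of the grey ones.

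Counting genes whose arrays did not overlap between the groups gave the same picture. Iso and untreated WT arrays did not overlap for 9 of 60 channel genes, against 15.6% of all genes, and Iso and untreated DKO arrays for 10, against 21.5%. DKO and WT did not overlap for 12 channel genes without Iso, against 17% of all genes, for 6 with Iso, against 17.6%, and for 11 in the means of the mice, against 15.8%. The shares of channel genes were 15%, 16.7%, 20%, 10% and 18.3%. All 6 mice moved the same way with Iso for 2 channel genes, against 7.15% of all genes: Cacnb2, which was higher with Iso in every mouse, and Kcnt1, a sodium-activated potassium channel, which was lower in every mouse.

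The L-type calcium channel was examined first among the single genes, since its current is the best known target of beta-adrenergic stimulation. Cacnb2, the beta subunit that brings the pore to the membrane, gave log2 signals of 7.0, 7.17 and 7.13 in WT without Iso and 7.43, 7.69 and 7.73 with it. In DKO it gave 7.34, 6.82 and 7.29 without and 7.51, 7.56 and 7.39 with Iso. The Iso arrays were above all untreated arrays within each genotype. The mean Iso effect was 0.43 (95% interval 0.20 to 0.66, 1.34-fold), with a limma adjusted p of 0.122, and 0.46 with an adjusted p of 0.0652 without untreated DKO array 3.

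Cacna1c, the pore, gave 7.89, 8.03 and 8.09 in untreated WT, 8.26, 8.47 and 8.34 in WT with Iso, 8.07, 7.87 and 8.27 in untreated DKO and 8.46, 8.57 and 8.19 in DKO with Iso. The WT groups were apart, the DKO groups overlapped, and 5 of 6 mice were higher with Iso. The Iso effect was 0.35 over both genotypes (limma adjusted p = 0.156), and 0.35 in WT and 0.34 in DKO taken singly. Without untreated DKO array 3 the mean effect was 0.40 (adjusted p = 0.0710).

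Cacna2d1, the alpha2delta subunit that raises the current, gave 7.46, 7.71 and 7.56 in untreated WT, 8.06, 7.94 and 7.50 in WT with Iso, 7.70, 7.21 and 6.85 in untreated DKO and 7.81, 7.86 and 7.73 in DKO with Iso. The Iso-treated DKO arrays were close to each other and above the 3 untreated DKO arrays, of which array 3 was lowest. The Iso effect in DKO was 0.55 (limma adjusted p = 0.178), and 0.34 (adjusted p = 0.401) without untreated DKO array 3. Over both genotypes it was 0.40 (adjusted p = 0.219), and 0.30 without that array.

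Other core calcium channel genes gave smaller mean Iso effects. Cacnb1, which encodes the beta subunit best known from skeletal muscle, differed by -0.07 with Iso, Cacna1g, a T-type pore, by 0.02 and Cacna2d2 by 0.02. DKO against WT over both treatments gave -0.04 for Cacnb2, 0.06 for Cacna1c and -0.18 for Cacna2d1, the last being -0.03 without untreated DKO array 3. Among the gamma subunits, all 5 bright genes were above 0 in DKO without Iso, as were 48.1% of all genes tested. Cacng4 gave 3.71, 3.83 and 3.69 in untreated WT and 4.28, 4.03 and 4.83 in untreated DKO, without overlap, a difference of 0.64 (limma adjusted p = 0.202) that was 0.41 (adjusted p = 0.327) without untreated DKO array 3. With Iso the values were 3.80, 3.94 and 3.80 in WT and 3.69, 3.90 and 4.30 in DKO, which overlapped. Cacng7 differed by 0.37 in DKO without Iso (limma adjusted p = 0.276), with values between 2.81 and 3.53, close to the array median.

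**Figure D4:**
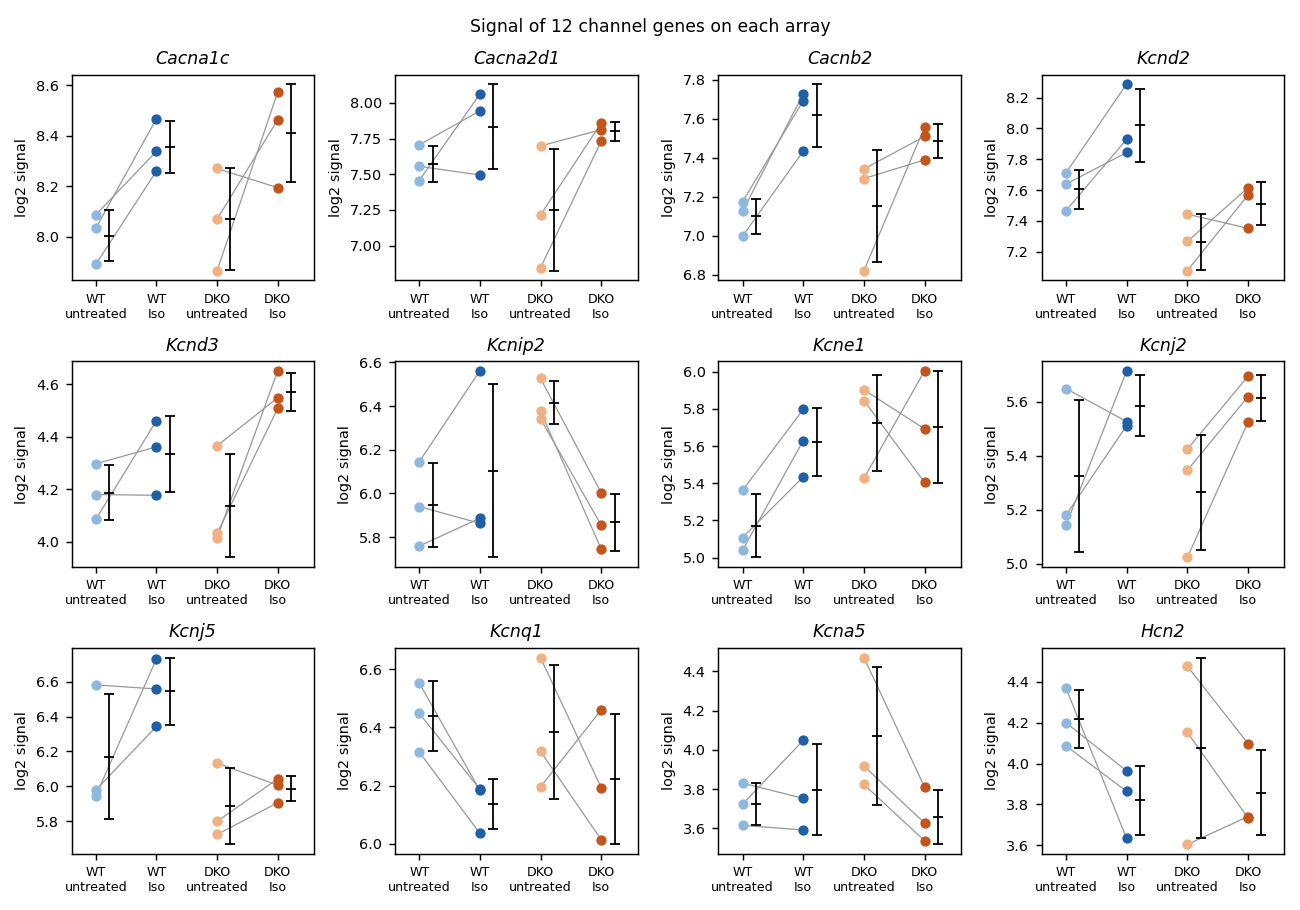
Log2 signal (vertical axis) of 12 channel genes on each array; points are arrays, grey lines join the untreated and the Iso array of a mouse, and the black marks give mean and SD of each group of 3. Iso arrays of Cacnb2 lie above the untreated arrays in both genotypes, Kcnd2 is lower in DKO, and most other groups overlap.

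Sodium channels could hardly be followed, since Scn4b, a beta subunit that adjusts gating, was the single bright one. It gave 3.41 to 3.47 in untreated WT, 3.43 to 3.78 in WT with Iso and 3.44 to 3.52 in DKO with Iso. In untreated DKO it gave 3.44, 3.45 and 4.43, so that array 3 alone set the difference of 0.33 from untreated WT, which was -0.00 without that array.

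The transient outward current of the ventricle is carried by pores encoded by Kcnd2 and Kcnd3 together with the calcium-binding partner encoded by Kcnip2. Kcnd2 gave 7.47, 7.71 and 7.64 in untreated WT, 7.93, 8.29 and 7.84 in WT with Iso, 7.27, 7.08 and 7.44 in untreated DKO and 7.62, 7.57 and 7.35 in DKO with Iso. It was lower in DKO than in WT without overlap, both without and with Iso. The difference of the mouse means was -0.43 (95% interval -0.68 to -0.18, limma adjusted p = 0.251), and -0.44 (adjusted p = 0.0822) without untreated DKO array 3. The mean Iso effect on Kcnd2 was 0.33 (limma adjusted p = 0.185), and 0.38 without that array.

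Kcnd3 gave 4.30, 4.18 and 4.09 in untreated WT, 4.36, 4.18 and 4.46 in WT with Iso, 4.37, 4.03 and 4.02 in untreated DKO and 4.55, 4.51 and 4.65 in DKO with Iso. The Iso-treated DKO arrays were above all others. The Iso effect in DKO was 0.43 (limma adjusted p = 0.126), and 0.37 (adjusted p = 0.231) without untreated DKO array 3. Over both genotypes it was 0.29 (adjusted p = 0.188), and 0.26 without that array.

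Kcnip2 gave 5.94, 5.76 and 6.14 in untreated WT, 5.86, 5.89 and 6.56 in WT with Iso, 6.34, 6.38 and 6.53 in untreated DKO and 5.86, 5.75 and 6.00 in DKO with Iso. Without Iso the DKO arrays were all above the WT arrays, a difference of 0.47 that did not pass (0.41 without untreated DKO array 3). With Iso the genotypes overlapped. All 3 DKO mice were lower with Iso, and the WT mice went both ways. The Iso effect was -0.55 in DKO (limma adjusted p = 0.146; -0.49, adjusted p = 0.266, without untreated DKO array 3) and 0.16 in WT. The difference between these effects was -0.70 (limma adjusted p = 0.417), and -0.65 without that array.

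Of the delayed rectifiers, Kcne1, the accessory subunit of the Kcnq1 pore, gave 5.04, 5.36 and 5.11 in untreated WT, 5.63, 5.80 and 5.43 in WT with Iso, 5.90, 5.43 and 5.84 in untreated DKO and 5.69, 6.00 and 5.40 in DKO with Iso. The untreated WT arrays were the 3 lowest. Kcne1 was 0.55 higher in DKO without Iso (limma adjusted p = 0.218; 0.49 without untreated DKO array 3), 0.45 higher with Iso in WT (adjusted p = 0.680) and 0.32 higher in DKO over both treatments (adjusted p = 0.403; 0.24 without that array). Kcnq1 itself gave 6.32, 6.55 and 6.45 in untreated WT and 6.04, 6.18 and 6.19 with Iso, while its DKO groups overlapped. Its mean Iso effect was -0.23, and -0.17 without untreated DKO array 3. Kcna5, a pore of the ultrarapid current, was highest on untreated DKO array 3 (4.47), and its Iso effect in DKO of -0.41 was -0.21 without that array. The difference between its Iso effects was -0.49 (limma adjusted p = 0.518), and -0.29 without that array. Kcnh2, the pore of the rapid delayed rectifier, spanned 5.08 to 6.04 in untreated DKO and 4.59 to 5.18 in DKO with Iso, and was -0.23 in DKO over both treatments (-0.47, limma adjusted p = 0.155, without untreated DKO array 3, where it was highest). Kcnc4 differed by 0.11 with Iso and by -0.06 in DKO. Kcnv2, a silent subunit that modifies other pores, was -0.57 in DKO without Iso (limma adjusted p = 0.248; -0.55 without array 3) and -0.37 over both treatments (adjusted p = 0.435; -0.33 without it and -0.23 without untreated DKO array 1).

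**Figure D5:**
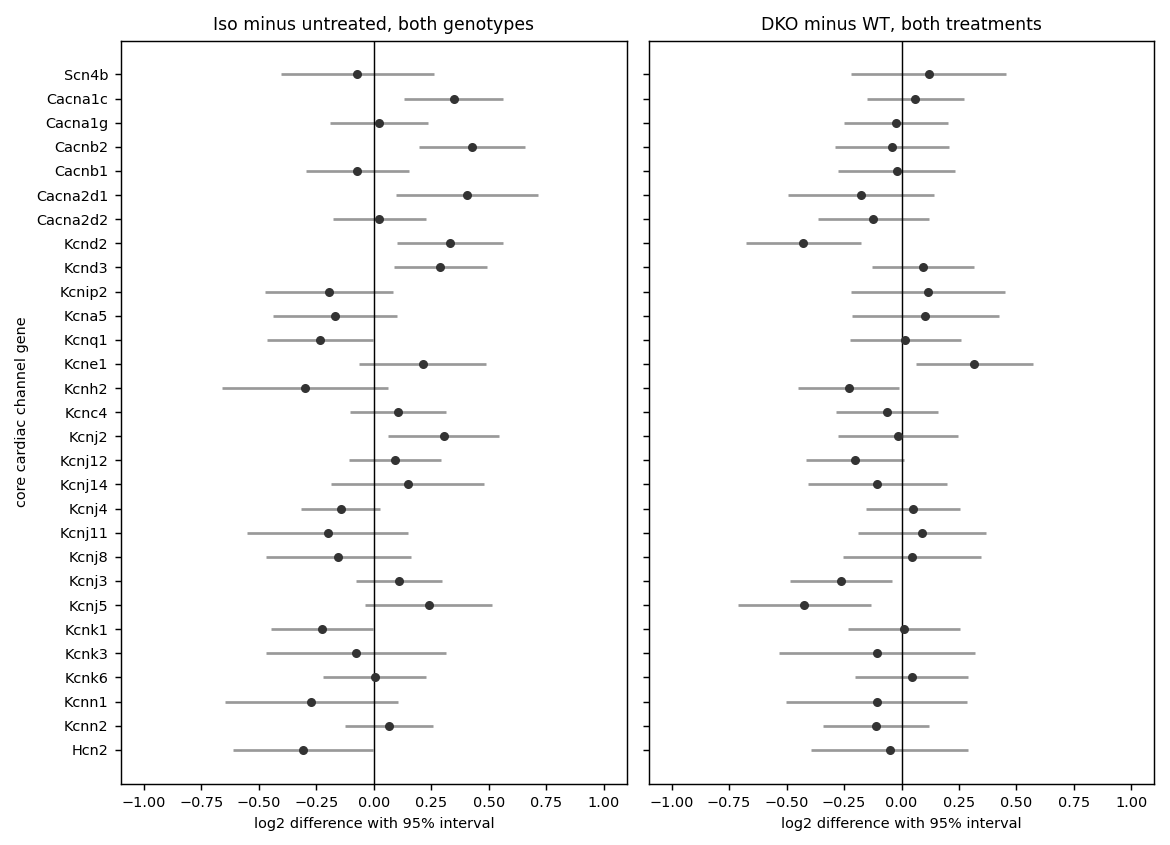
Log2 difference with its 95% interval (horizontal axis) for each of the 29 bright core cardiac channel genes (rows), with Iso minus untreated over both genotypes at left and DKO minus WT over both treatments at right. At left the intervals of Cacna1c, Cacnb2, Cacna2d1, Kcnd2, Kcnd3 and Kcnj2 lie above 0 and those of Kcnq1, Kcnk1 and Hcn2 below, and at right those of Kcnd2, Kcnj5, Kcnj3 and Kcnh2 lie below 0 and that of Kcne1 above; these intervals are not adjusted for the number of genes.

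The inward rectifiers set the resting potential or answer to ATP or to G proteins. Kcnj5 and Kcnj3 encode the channel that acetylcholine opens through G proteins, which is best known from atrium and pacemaker tissue. Kcnj5 gave 5.98, 5.95 and 6.58 in untreated WT, 6.34, 6.73 and 6.56 in WT with Iso, 5.72, 5.80 and 6.13 in untreated DKO and 5.91, 6.04 and 6.01 in DKO with Iso. With Iso the DKO arrays were all below the WT arrays, and without Iso the genotypes overlapped. The difference was -0.56 with Iso (limma adjusted p = 0.362) and -0.42 over both treatments (adjusted p = 0.316; -0.44, adjusted p = 0.112, without untreated DKO array 3). Kcnj3 gave 4.84, 4.81 and 4.74 in untreated WT and 4.42, 4.53 and 4.48 in untreated DKO, and 4.75 to 4.95 in WT and 4.47 to 4.84 in DKO with Iso. The difference between DKO and WT over both treatments was -0.26 (limma adjusted p = 0.432; -0.20 without array 3). The atrial markers are given beside these: their mean log2 signal over 6 bright markers of 7 was 5.95 to 6.90 in untreated WT, 5.94 to 7.51 in WT with Iso, 6.06 to 6.31 in untreated DKO and 5.86 to 5.98 in DKO with Iso. Between DKO and WT, 4 of the 6 had differences below 0 without Iso and 5 over both treatments, and 1 passed in each. Of all genes, 48.1% lay above 0 without Iso, 49.2% over both treatments and 50.9% with Iso. In the same order, 0.204%, 0.291% and 0.306% of all genes passed. With Iso all 6 had differences below 0 in DKO, with a median of -0.92, and 1 of them passed. Nppa, the atrial natriuretic peptide that stressed ventricle also makes, fell by 1.28 (limma adjusted p = 0.0262). The atrial markers Sln and Myl7 gave 8.33, 8.11 and 3.27 and 8.16, 7.93 and 4.82 in WT with Iso, where array 3 lacked the high level of the other 2. The part of atrial cells in the values of Kcnj3 and Kcnj5 was not tested.

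Kcnj2, the main pore of the resting inward rectifier, gave 5.65, 5.18 and 5.14 in untreated WT, 5.53, 5.51 and 5.71 in WT with Iso, 5.42, 5.35 and 5.02 in untreated DKO and 5.69, 5.62 and 5.52 in DKO with Iso. The DKO groups were apart and the WT groups overlapped. The mean Iso effect was 0.30 (limma adjusted p = 0.237), and 0.24 (adjusted p = 0.266) without untreated DKO array 3. Kcnj12, its partner, was -0.37 in DKO without Iso (limma adjusted p = 0.244; -0.28 without that array), and -0.03 with Iso. Kcnj14, another strong inward rectifier, gave 4.65, 5.03 and 4.57 in untreated WT, 5.61, 5.02 and 5.22 in WT with Iso, 4.95, 4.67 and 5.46 in untreated DKO and 4.53, 4.95 and 4.89 in DKO with Iso. Its Iso effect was 0.53 in WT and -0.24 in DKO, and the latter was -0.02 without that array. The difference between these effects was -0.77 (limma adjusted p = 0.444; -0.55 without that array), and the mice of the genotypes overlapped. With Iso it was -0.49 in DKO (adjusted p = 0.608). Kcnj4 differed by -0.14 with Iso and by 0.05 in DKO.

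The ATP-sensitive channel has pores encoded by Kcnj11 and Kcnj8. Kcnj11, the myocyte form, gave 5.95, 6.07 and 5.70 in untreated WT, 5.67, 5.69 and 6.59 in WT with Iso, 6.33, 6.24 and 6.25 in untreated DKO and 5.56, 5.70 and 6.13 in DKO with Iso. The untreated DKO arrays were close together and above the untreated WT and the Iso-treated DKO arrays. The Iso effect in DKO was -0.48, and -0.49 without untreated DKO array 3 (limma adjusted p above the threshold in both). Kcnj8, the form best known from vascular cells, spanned 4.07 to 4.89 over all arrays, with all groups overlapping. Endothelial markers gave a mean log2 signal of 5.99 to 6.27 in untreated WT and 6.34 to 6.77 in untreated DKO over 15 bright markers of 16. Arrays 1, 2 and 3 of untreated DKO gave 6.42, 6.34 and 6.77. In DKO without Iso 12 of the 15 lay above 0, against 48.1% of all genes. Their median was 0.43 and none was past the threshold, while the difference of Kcnj8 was 0.01. The part of vascular cells in the channel values was not tested.

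Among background and calcium-activated channels, Kcnk3 gave 7.43, 7.71 and 7.68 in untreated WT, 7.27, 7.55 and 7.75 in WT with Iso, 7.29, 6.95 and 8.23 in untreated DKO and 7.44, 7.32 and 7.51 in DKO with Iso. Untreated DKO array 3 was the highest of all 12 and array 2 the lowest. The difference in DKO without Iso was -0.12, and -0.49 (limma adjusted p = 0.242) without array 3. Kcnn1, a small-conductance calcium-activated channel, behaved likewise: 4.09, 4.13 and 4.33 in untreated WT and 3.65, 3.73 and 4.78 in untreated DKO, a difference of -0.13 that was -0.49 (adjusted p = 0.201) without array 3. Kcnn2, of the same family, was -0.28 in DKO with Iso (limma adjusted p = 0.613; -0.16 without Iso-treated WT array 3), and its values lay between 3.17 and 3.74. Kcnk1 was -0.35 with Iso in DKO (adjusted p = 0.221; -0.27 without array 3), Kcnk6 lay at 2.95 to 3.48, and both were near the array median. Hcn2, a pacemaker channel that cAMP opens further, gave 4.20, 4.37 and 4.09 in untreated WT and 3.96, 3.63 and 3.86 with Iso. Its mean Iso effect was -0.31 (-0.29 without untreated DKO array 3), with overlapping groups in DKO.

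The Iso effects in WT and in DKO share no array. Over the 60 channel genes their correlation was 0.24, with 34 of the same sign (56.7%), against 0.06 and 52.2% over all 13737 genes. The differences between DKO and WT without and with Iso share no array either, and correlated at 0.08 over the channel genes, with 31 of the same sign (51.7%), against 0.05 and 48.0% over all genes. These are descriptions across genes, which are not independent replicates. In the pair of genotype comparisons, arrays of the same mice enter both sides. Within-mouse differences did not overlap for 6 of 60 channel genes (10%), against 17.6% of all genes. In 2 of the 60, Cacng4 and Kcnk10, every DKO mouse moved one way with Iso and every WT mouse the other, as did 4.77% of all genes.

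Genes whose products work with the channels without carrying a channel symbol were looked at as well. Of 35 such partners, 32 were in the table and 29 were bright. In the mean Iso effect 1 of the 29 passed: Trpm7, a divalent cation channel that is also a kinase, rose by 0.66 on the log2 scale (limma adjusted p = 0.0306), from 5.39, 5.86 and 5.53 to 6.11, 6.26 and 6.13 in WT and from 5.71, 5.62 and 5.35 to 6.27, 6.29 and 6.35 in DKO. Its Iso arrays were above all untreated arrays. In the other 6 comparisons no partner passed. The smallest p after Trpm7 belonged to Popdc2 (-0.31), a cAMP-binding membrane protein, and Cav3 (-0.38), the caveolin of muscle, for Iso over both genotypes, to Bves (-0.28) and Calm3 (-0.44) for Iso in WT and to Lrrc10 (-0.58) and Dlg1 (0.48) for Iso in DKO. Between the Iso effects Lrrc10 (-0.68), Bves (0.50) and Sntb1 (0.91) came first. Between the genotypes they belonged to Popdc2 (-0.38), Dlg1 (-0.36) and Abcc8 (0.33), the sulfonylurea receptor of the ATP-sensitive channel, without Iso, to Popdc2 (-0.54), Bves (0.43) and Lrrc10 (-0.49) with Iso, and to Popdc2 (-0.46), Gem (0.43), an inhibitor of calcium channels, and Ank3 (-0.24) over both.

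Of 16 transcription factors known to act on cardiac channel genes, 13 were bright and none passed in any comparison. Mef2c had the smallest p for Iso over both genotypes (0.41, limma adjusted p = 0.0656), in WT (0.35) and in DKO (0.48), followed by Nkx2-5 (-0.38) and Irx5 (-0.15) over both, Klf15 (0.34) and Irx4 (-0.18) in WT and Klf15 (-0.69) and Nkx2-5 (-0.63) in DKO. Klf15, a factor known to control Kcnip2, had the smallest p for the difference between Iso effects (-1.03, limma adjusted p = 0.390), before Etv1 (0.36) and Foxo1 (0.32). Between the genotypes the 3 smallest p were those of Mef2c (-0.30), Klf15 (0.49) and Hey2 (-0.33) without Iso, Klf15 (-0.54), Hey2 (-0.37) and Mef2c (-0.17) with Iso, and Hey2 (-0.35), Mef2c (-0.23) and Rest (-0.28) over both.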

How the data were processed

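Total RNA of cultured ventricular myocytes was labelled as biotinylated cRNA and hybridised to 12 Affymetrix arrays. Per the submitters' processing notes, the authors used RMA; the sources used here do not give its version, the array type or the annotation build. Values were deposited as log2 signals and taken unchanged. Of 25428 probe sets, 723 had no symbol, and of 1 symbol with 2 probe sets the brighter was used. Genes above the median of their array on at least 3 of 12 arrays (13737 of 24704) were fitted with limma 3.58.1 in R 4.3.3, with group means over all 12 arrays and moderated variances (eBayes). The fit of group means held no block for the mouse, so its Iso p-values and intervals are unpaired. DKO over both treatments was fitted on the means of the 6 mice. Where an array was left out, the remaining array of its mouse stood alone for that mouse, so treatment enters that difference. Benjamini-Hochberg adjustment ran over all 13737 genes, with 0.05 as threshold, and p-values rest on 3 separate mice per genotype. The fits were tested on simulated data. 

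The mouse number in the labels marks the same animal, so it pairs the untreated and the Iso array. Across genes, the deviations of the arrays in a pair correlated at 0.00733, 0.0864 and 0.130 for the DKO and -0.0623, 0.0566 and 0.0109 for the WT animals. Named were all bright core cardiac channel genes, the 5 channel genes with the smallest p in each comparison, the 15 brightest, the 3 on each side of the filter, and partners and factors that passed or had the 3 smallest p. Further genes were named after their values were seen. The members and lists were chosen with earlier results of these data known. All 132 members were found in the RefSeq gene table of GRCm38.p6. Alternatives were other filters, scalings and variance settings, array weights, blocks, only the 6 arrays compared, and each array left out in turn. Raw array files were not used here.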

Additional observations from a re-analysis of the deposited data

Results flagged for a closer look

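In 2 channel genes every DKO mouse moved one way with Iso and every WT mouse the other way, a pattern that 4.77% of all genes tested showed. For Cacng4, a gamma subunit of calcium channels, the Iso minus untreated log2 difference was -0.59, -0.13 and -0.53 in DKO, against 0.09, 0.12 and 0.11 in WT. The difference between the genotypes was -0.52 (SE 0.279) and did not pass (limma adjusted p = 0.530), and it was -0.30 without untreated DKO array 3. For Kcnk10, a 2-pore background potassium channel, the differences were 0.03, 0.30 and 0.33 in DKO and -0.01, -0.02 and -0.10 in WT. The difference between the genotypes was 0.27 (SE 0.182, limma adjusted p = 0.608), and 0.18 without untreated DKO array 3.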

How the results depend on the processing

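The count of channel genes past the threshold was 0 in all 7 comparisons and was recomputed under 24 alternative settings, each where it could be fitted. It moved under array weights alone, which gave 2 channel genes for DKO without Iso (Kcne1 at 0.61, adjusted p = 0.0443, and Kcnv2 at -0.68, adjusted p = 0.0416) and 2 for Iso over both genotypes (Cacnb2 at 0.36, adjusted p = 0.0418, and Cacna1c at 0.36, adjusted p = 0.0365). That setting called 698 and 581 of all genes in these comparisons and gave untreated DKO array 3 a weight of 0.156, against 0.504 to 2.61 for the other arrays; the cause was not tested. With each of the 12 arrays left out in turn, the count ranged from 0 to 0 in every comparison. With the mouse as a fixed or random replicate block, or the replicate number shared by WT and DKO as a block, it was 0 as well, so that the pairing changed no call. No difference of a gene among the 5 with the smallest p changed sign under any setting. Dim genes, among them all sodium channel pore genes analysed here, had signals near or below the array median, and no change in them is reported.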
